A study of Mus musculus with 21 samples.

Results

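Toll-like receptors are pattern receptors with which microglia, the resident macrophages of the brain, sense microbial molecules and some products of damaged cells. Cd14 is a surface protein that hands lipopolysaccharide and other lipids to several of them. The 10 genes described here are Tlr1, Tlr2, Tlr3, Tlr4, Tlr6, Tlr7, Tlr9, Tlr12, Tlr13 and Cd14, chosen by name, out of 18079 genes in one table and 13297 in the other. All 10 have a value in both tables. In the genotype table, 4 libraries are labelled as microglia of uninjected female ApoE KO mice (strain B6.129P2-Apoetm1Unc/J, in which Apoe, the gene of the chief lipid carrier in brain, was disrupted by targeting in every cell), and 7 as microglia of uninjected female WT C57BL/6 mice. In the injection table, 5 libraries are labelled as microglia of male ApoE KO mice of that strain injected with rAPOE (recombinant APOE protein dissolved in PBS), and 5 as microglia of male ApoE KO mice of that strain injected with PBS (phosphate-buffered saline). All mice were 12 to 18 weeks old. In the injection experiment the left hemisphere was injected and microglia were collected 16 h later, so both of its groups lack the mouse's own ApoE.

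Toll-like receptors at the cell surface (Tlr1, Tlr2, Tlr4, Tlr6) bind lipoproteins and lipopolysaccharide, and those of the endosome (Tlr3, Tlr7, Tlr9, Tlr13) bind nucleic acids, while mouse Tlr12 binds a protein of protozoa. All except Tlr3 signal through the adaptor Myd88, and Tlr3 and internalised Tlr4 signal through Ticam1. The kinases and transcription factors that follow switch on cytokine, chemokine and interferon-response genes.

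Each value is a normalised count, a library's reads of a gene divided by a library-wide factor, made from tags at the 3′ end of transcripts. The labels do not say that libraries came from separate mice or from which hemisphere, so a p-value here weighs a difference against the spread among libraries, which may in part be technical. The libraries held 4247865 to 4969287 reads in KO females, 2016972 to 3054976 in WT females, 857059 to 1119059 after rAPOE and 704225 to 1347501 after PBS.

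Some libraries went against their labels or stood apart. WT libraries other than 8 held 11 to 36 reads of Y-linked genes, with Xist, the RNA of the inactive X chromosome, at 1127 to 1279. The KO female libraries and WT library 8 held no Y-linked read, with Xist at 1980 to 3292. Apoe itself stood at 0 to 23.1 in KO libraries and at 13196 to 17163 in WT libraries other than 8, while WT library 8 had 1011. In the injection table, library 5 of each group held no Y-linked read and Xist at 718 (rAPOE) and 979 (PBS), although labelled male; the other libraries held 83 to 374 Y-linked reads. Counts of members called are given with and without WT library 8, and with and without both libraries numbered 5. No fit left out together the WT libraries that held Y-linked reads.

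The microglia label fits the 10 microglia markers checked (among them Cx3cr1, P2ry12 and Tmem119), none of which was at 0 in any library. Their summed level was 68352 to 80816 in KO females and 50287 to 68222 in WT females. It was 10876 to 22828 after rAPOE and 20836 to 25047 after PBS. Markers of other cells differed between KO and WT libraries. Choroid plexus markers summed to 435 to 872 in KO and 23584 to 83161 in WT libraries, and monocyte markers to 3.46 to 219 in KO and 66.8 to 1506 in WT libraries. The largest monocyte marker in WT was Fn1, with a median of 955 in WT and 0 in KO. Chil3 and Ms4a4c had higher medians in KO (22.1 and 16.3) than in WT (13.3 and 7.14), and the other monocyte markers had lower ones. Neutrophil markers summed to 1575 to 6220 in KO and 179 to 2715 in WT libraries. WT library 8 stood apart from the other WT libraries in these sums. It gave the highest WT microglia sum (68222) and the lowest WT choroid plexus, monocyte and neutrophil sums (23584, 66.8 and 179). Only its monocyte sum lay within the KO range. The other WT libraries had microglia sums of 50287 to 53493 and choroid plexus sums of 57067 to 83161. Their monocyte sums were 1261 to 1506 and their neutrophil sums 2056 to 2715. Single neutrophil markers went both ways. The median of S100a8 was 1936 in KO and 1198 in WT, and that of Retnlg 21.3 in KO and 55.4 in WT. Elane was at 0 in all 4 KO libraries and in 4 of 7 WT libraries. The number of genes detected was 8117 to 10479 in KO and 13592 to 15248 in WT libraries, with no overlap. These sums and numbers move with the genotype groups, and their part in the receptor values was not tested, except for the microglia markers by the rescaling given further on. Of the 5 members higher in KO, Tlr3 and Tlr4 also passed after that rescaling, and Cd14, Tlr13 and Tlr12 did not. In bulk RNA, fewer cells of a type and less RNA per cell cannot be told apart.

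The stretches of sequence just before the start of 3 members are printed here. These members passed the test in a comparison, and the RefSeq (GRCm38.p6) entries searched here hold a start for them. Tlr4 and Cd14 also passed, but no entry for them was searched. Tlr3 also passed and has an entry, but its whole window lies inside the GENCODE gene, so it is not printed. Each is the part of the 250 bases before the RefSeq start that also lies before the GENCODE gene. Tlr2 lies on the minus strand (chr3:83841768-83841858), Tlr13 on the plus strand (chrX:106143025-106143203) and Tlr12 on the minus strand (chr4:128618620-128618869). Capitals mark matches to the kappa-B consensus, the binding motif of NF-kappa-B, in Tlr2, and to GAGGAAG, a form of the core motif of the myeloid factor PU.1, in Tlr13.
Tlr2: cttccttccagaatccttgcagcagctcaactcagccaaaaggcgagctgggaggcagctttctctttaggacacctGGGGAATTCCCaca
Tlr13: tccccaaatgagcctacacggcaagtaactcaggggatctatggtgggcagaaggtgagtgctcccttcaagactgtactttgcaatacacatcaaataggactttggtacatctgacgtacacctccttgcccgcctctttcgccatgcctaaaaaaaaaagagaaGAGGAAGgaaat
Tlr12: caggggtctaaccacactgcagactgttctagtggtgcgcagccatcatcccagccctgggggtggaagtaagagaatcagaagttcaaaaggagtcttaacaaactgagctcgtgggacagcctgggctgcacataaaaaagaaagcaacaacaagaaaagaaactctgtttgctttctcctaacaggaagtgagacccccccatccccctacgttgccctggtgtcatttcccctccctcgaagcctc

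Of the 10 members, 7 had a promoter entry that was searched, on both strands of the 250 bases. Entries on chromosome 18, where Cd14 lies, were left out. The Tlr2 window holds 2 kappa-B matches in the direction of the gene that overlap each other, beginning 173 and 172 bases before the start, and the second is also a match on the opposite strand. The Tlr3 window, which lies inside the GENCODE gene, holds 1 such match. Of all 32851 windows of this length, 7.25% hold a kappa-B match. GAGGAAG occurs in a window each of Tlr1, Tlr9 and Tlr13, and in 10.6% of all windows. The other Tlr1 window, at 64932700 to 64932949, holds none. The core motif of interferon-stimulated response elements occurs in 1 member, Tlr6, as 2 matches on the opposite strand that overlap by 4 bases, and in 2.98% of all windows. Both Tlr6 matches lie in the window at 64959167 to 64959416, wholly inside the GENCODE gene. The other Tlr6 window, at 64960049 to 64960298, holds none. A match is a description of letters and not evidence of binding.

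In ApoE KO microglia, 5 of the 9 members tested were higher than in WT microglia and none was lower. These 5 were Tlr3 and Tlr4, with the largest differences, Cd14, Tlr13 and Tlr12. Passing means a limma p under 0.05 after Benjamini-Hochberg adjustment over the 10401 genes whose mean was 10 or more, of which 5.14% were higher and 19.8% lower (25% called either way). With edgeR on the recovered reads the same 5 members passed, against 4.79% of genes higher and 11.1% lower. Tlr9 had too few reads to be tested. The median log2 difference of the 9 members was 0.73, against -0.45 over all genes tested and -0.18 over the 5142 genes with a mean of 50 to 500. Without WT library 8, 6 members were higher and 0 lower, against 7.6% and 22.6% of all genes.

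**Figure D1:**
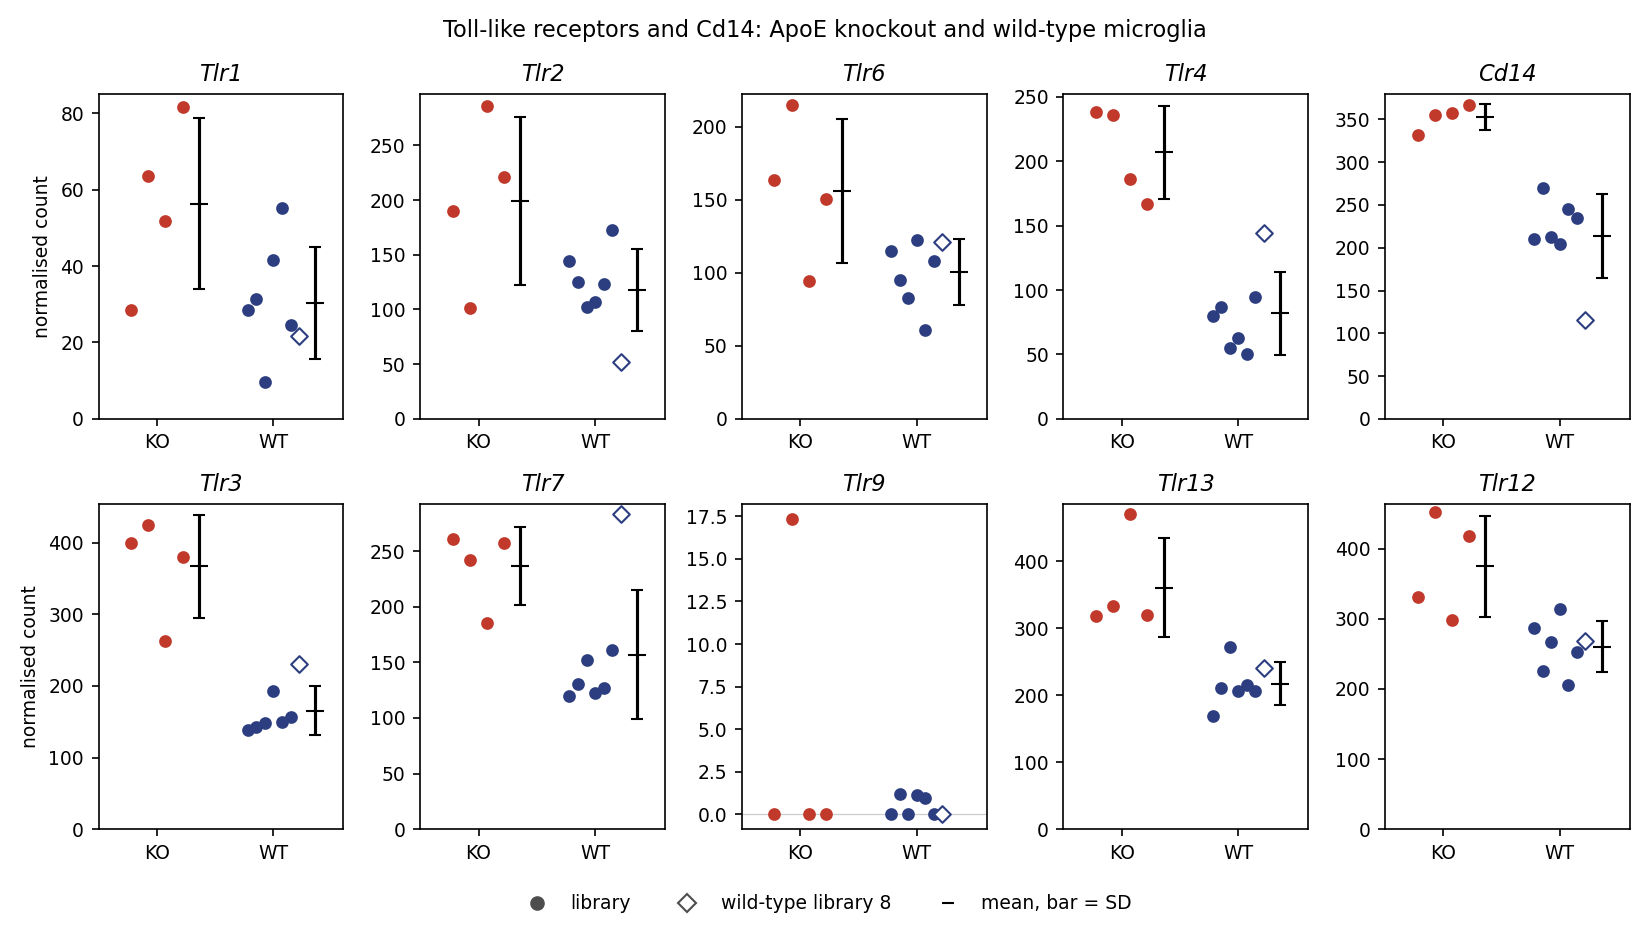
Normalised counts of the 10 members in each library of the genotype table, KO left (4 red points) and WT right (7 blue points, with library 8 as an open diamond); black marks give the mean and SD, left out for Tlr9. KO and WT libraries do not overlap for Tlr3, Tlr4, Tlr13 and Cd14, and library 8 is the highest WT library for Tlr4, Tlr3 and Tlr7 and the lowest for Cd14 and Tlr2.

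Tlr4, the receptor of bacterial lipopolysaccharide, had normalised counts of 238, 236, 186 and 167 in KO libraries 1 to 4. In WT libraries its lowest, median and highest values were 50.3, 80.0 and 144. Every KO library lay above every WT library, and the highest WT value came from library 8. Their log2 difference was 1.39 (SE 0.29, limma adjusted p = 0.00294), with means of 207 ± 36.1 in KO (SD, n = 4) and 82.0 ± 32.1 in WT (SD, n = 7), a 2.52-fold higher level. Groups did not overlap for 4 of the 9 tested members, all higher in KO, against 3.67% of all genes higher and 10.6% lower in this way. Tlr4 lies on the plus strand of chromosome 4 (66827584 to 66930284, GRCm38).

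Cd14, the co-receptor that passes lipopolysaccharide to Tlr4, had 332, 355, 357 and 367 in KO libraries. Its lowest, median and highest WT values were 116, 213 and 270.4. The KO values were close together (coefficient of variation 4.2%) and all above WT, and library 8 was the lowest WT library. Cd14 had a log2 difference of 0.76 (SE 0.21, limma adjusted p = 0.0153). The call held without library 8, with a difference of 0.62 (limma adjusted p = 0.00126), and was lost when rescaled to microglia markers (limma adjusted p = 0.362). Cd14 lies on the minus strand of chromosome 18 (36725067 to 36726798).

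Of the partners of Tlr4 in lipopolysaccharide sensing, Lbp was lower in KO, and Ly96, Cd180 and Ly86 did not pass. Ly96, the protein through which Tlr4 binds lipopolysaccharide, averaged 35.6 ± 28.4 in KO and 20.0 ± 5.87 in WT libraries, and did not pass (log2 difference 0.55, limma adjusted p = 0.474). Lbp, a plasma protein that carries lipopolysaccharide to Cd14, fell by 7.38 on the log2 scale (limma adjusted p = 1.58e-06), with means of 0.756 ± 1.51 in KO and 267 ± 97.0 in WT libraries. Cd180 and Ly86, a receptor pair that modulates Tlr4 signalling in B cells and macrophages, did not pass, with log2 differences of 0.03 and -0.36 (limma adjusted p = 0.941 and 0.345).

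The 3 members that recognise lipoproteins did not pass in this comparison. Tlr2, which pairs with Tlr1 or Tlr6, had 190.1, 101, 286 and 221 in KO libraries, against a lowest, median and highest of 52.4, 123 and 172 in WT libraries. KO library 2 lay within the WT range and the other 3 KO libraries above it. The log2 difference was 0.73 (SE 0.33, limma adjusted p = 0.125), with a 95% interval of 0.02 to 1.44. In 1 of 11 fits that each left out 1 library, Tlr2 passed (log2 difference 1.03, limma adjusted p = 0.0340). That fit left out KO library 2, the lowest KO value. In the other fits it did not pass, with limma adjusted p-values up to 0.291.

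Tlr1, which with Tlr2 binds triacylated lipoproteins, had 28.4, 63.7, 51.9 and 81.6 in KO libraries and 9.61, 28.5 and 55.2 as the lowest, median and highest of WT libraries. Its groups overlapped, and the log2 difference of 0.93 (SE 0.50) did not pass (limma adjusted p = 0.196). Tlr6, which with Tlr2 binds diacylated lipoproteins, had 163, 215, 94.7 and 151 in KO libraries and 61.1, 108 and 123 in WT libraries as lowest, median and highest. KO library 3 lay within the WT range, and the log2 difference was 0.60 (SE 0.27, limma adjusted p = 0.125). Without KO library 3, its lowest KO value, the Tlr6 difference was 0.82 (limma adjusted p = 0.0331). This was the only 1 of 11 such fits in which Tlr6 passed, and limma adjusted p-values reached 0.290. Tlr1 and Tlr6 are neighbours on the minus strand of chromosome 5 (64924679 to 64933563 and 64952031 to 64960097). Of the 703 stretches of 50 bases in the last 400 bases of Tlr1 transcripts, 58 also occur in transcripts of other genes, so the counts of Tlr1 are uncertain. Tlr4 had 1 and Tlr6 had 2 such stretches, and the other members had 0. No member overlaps another annotated gene in its last 400 bases.

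Among the receptors of nucleic acids, Tlr3 differed most. Tlr3, which binds double-stranded RNA, had 399.6, 425, 262 and 380.4 in KO libraries. Its lowest, median and highest WT values were 139, 149 and 231. KO and WT libraries did not overlap, although KO library 3 was lower than the other 3 and WT library 8 was the highest of its group. Tlr3 had a log2 difference of 1.14 (SE 0.20, limma adjusted p = 7.37e-04), with means of 367 ± 72.0 in KO (SD, n = 4) and 165 ± 34.0 in WT (SD, n = 7), a 2.22-fold higher level. Tlr3 lies on the minus strand of chromosome 8 (45395665 to 45411080).

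Tlr13, which in mice binds bacterial ribosomal RNA, had 318, 333, 471 and 319 in KO libraries, against a lowest, median and highest of 169, 210.0 and 273 in WT libraries. The groups did not overlap, and KO library 3 stood above the other KO libraries. Its log2 difference was 0.72 (SE 0.17, limma adjusted p = 0.00751), which did not pass when rescaled to microglia markers (limma adjusted p = 0.278). Tlr13 lies on the X chromosome (106143204 to 106160493, plus strand).

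Tlr7, which binds single-stranded RNA, also lies on the X chromosome (167304929 to 167330558, minus strand). It had 261, 242, 185 and 258 in KO libraries, against a lowest, median and highest of 120.1, 130.4 and 283 in WT libraries. All KO values lay above the WT libraries other than 8, which reached 161, and WT library 8 at 283 lay above all KO values. The log2 difference of 0.64 (SE 0.24) did not pass (limma adjusted p = 0.0658), while without library 8 it was 0.79 and passed (SE 0.16, limma adjusted p = 0.00216). It also passed without KO library 3 (0.75, limma adjusted p = 0.0459) and with quantile rescaling (limma adjusted p = 0.0490). WT library 8 is also the WT library without Y-linked reads and with Xist at the KO level. For every member, X-linked or not, genotype and the sex markers of the WT libraries other than 8 cannot be told apart. For Tlr13, WT library 8 had 240.1 and the lowest KO value was 318. That library also stood apart from the other WT libraries in Apoe, and the part of sex in these values was not tested.

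Tlr9, which binds unmethylated CpG DNA, was at 0 in 3 of 4 KO libraries and at 17.4 (39 reads) in KO library 2. In WT libraries it had 0 or 1 read. A count of 0 allows up to 3 reads, or a normalised count of up to 1.30 to 1.70 in those 3 KO libraries, for counting error only. Its level in KO library 2 was not shared by any other library, and it was not tested because its mean was under 10.

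Tlr12, which in mice binds profilin of protozoan parasites, had 331, 452, 298 and 418 in KO libraries and 206, 267 and 314 as the lowest, median and highest of WT libraries. KO library 3 lay within the WT range. Tlr12 had a log2 difference of 0.52 (SE 0.17, limma adjusted p = 0.0386), and it passed in only 4 of 11 fits that each left out 1 library, with limma adjusted p-values between 0.0217 and 0.110; rescaled to microglia markers it did not pass (limma adjusted p = 0.793). The libraries whose removal ended the call were WT 1, 2, 3, 6 and 7 and KO 2 and 4. Tlr12 lies on the minus strand of chromosome 4 (128615443 to 128618619). The calls of Tlr3, Tlr4, Tlr13 and Cd14 held in all 11 fits, with adjusted p-values of at most 0.0375 (Cd14 without KO library 4).

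Set against microglia markers, the receptors of KO and WT libraries lay closer together. The largest of these markers was Cx3cr1, with a median of 34493 in KO and 24164 in WT, so it weighed most in their sum. The markers did not move alike. Tmem119 had a median of 5027 in KO and 2016 in WT, while Csf1r, the only marker with a lower median in KO, had 6666 and 7686. When each library was rescaled to its summed microglia markers, an alternative added after the data were seen, 2 of 9 members were higher in KO. Tlr4 was higher by 0.94 (limma adjusted p = 0.0143) and Tlr3 by 0.69 (limma adjusted p = 0.00802) on the log2 scale, where 1.13% of all genes were higher and 34.7% lower and the median of all genes was -0.88. Tlr13, Cd14 and Tlr12 had rescaled differences of 0.27, 0.31 and 0.07 and did not pass (limma adjusted p = 0.278, 0.362 and 0.793). The members that had not passed had rescaled differences of 0.49 for Tlr1, 0.28 for Tlr2, 0.15 for Tlr6 and 0.19 for Tlr7 (limma adjusted p of 0.470 to 0.672).

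The Toll-like receptors that are not members were low. Tlr5, the flagellin receptor, had 3.97, 20.0, 14.7 and 10.2 in KO libraries and 0, 10.01 and 41.5 as the lowest, median and highest of WT libraries, and did not pass (limma adjusted p = 0.520). Tlr8 was at 0 in every library of the genotype table.

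**Figure D2:**
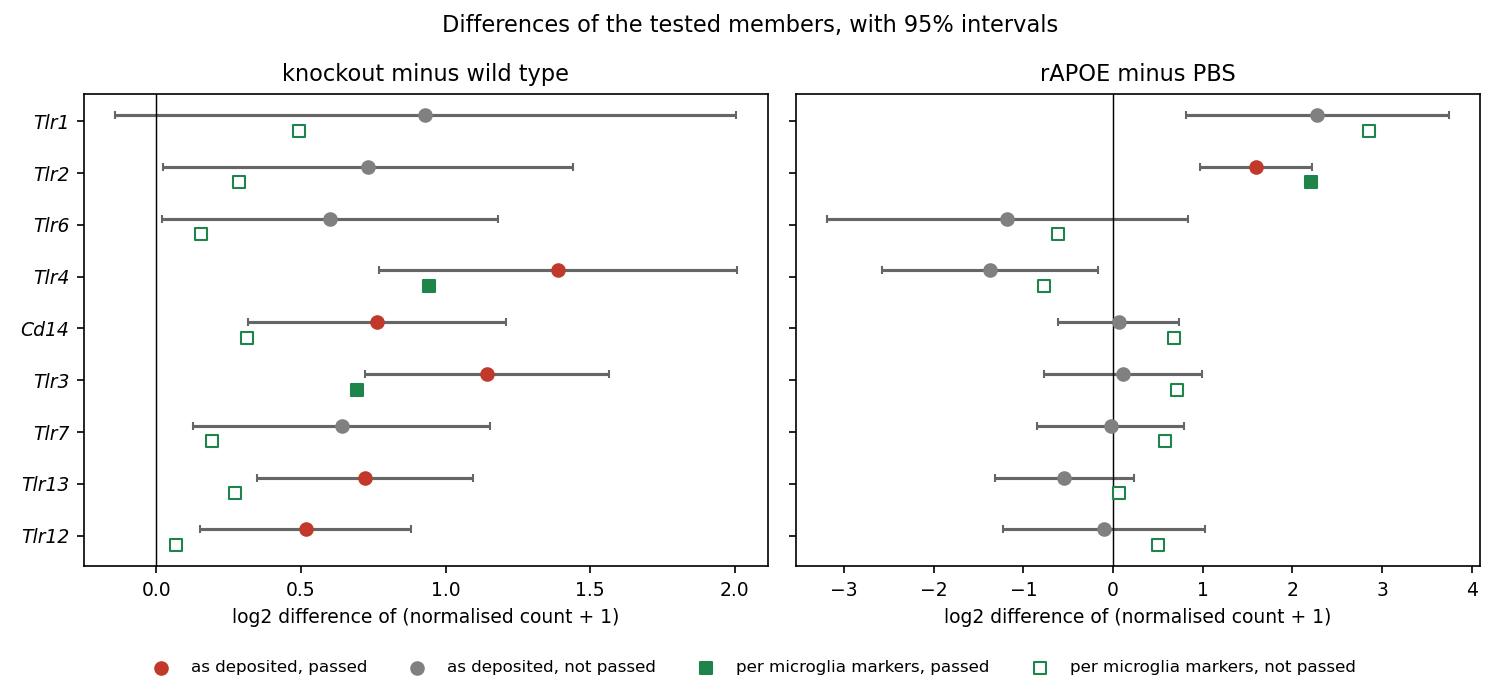
Log2 differences of the 9 tested members with 95% intervals, KO minus WT (left) and rAPOE minus PBS (right); circles use the deposited normalisation, squares the values rescaled to summed microglia markers, and filled red circles or green squares passed. All 9 circles lie above 0 for KO minus WT, from 0.52 (Tlr12) to 1.39 (Tlr4), while those for rAPOE minus PBS run from -1.37 (Tlr4) to 2.28 (Tlr1), with Tlr2 (1.59) the member that passed.

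Genes of the pathway moved in both directions. The pathway lists hold 85 genes, of which 74 were tested; 8 were higher and 9 lower in KO, against 5.14% of all genes higher and 19.8% lower, and the list's median log2 difference was -0.34. Of the chaperones and co-receptors, 1 of 10 was higher and 3 were lower. Unc93b1, which carries Tlr3, Tlr7, Tlr9 and Tlr13 to the endosome, averaged 2097 ± 181 in KO and 1172 ± 195 in WT libraries, a log2 difference of 0.85 (limma adjusted p = 3.63e-04). Hsp90b1, a chaperone that folds most Toll-like receptors, fell by 1.07 on the log2 scale (limma adjusted p = 5.82e-04), the direction opposite to that of the receptors. Cd36, a scavenger receptor that works with Tlr2 and Tlr6, fell by 4.52 with limma (adjusted p = 0.00259) but did not pass with edgeR (adjusted p = 0.0900).

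Of the 20 adaptors and kinases, 2 were higher and none was lower. Myd88, the adaptor of all members except Tlr3 and Cd14, averaged 226 ± 39.8 in KO and 136 ± 23.6 in WT libraries (log2 difference 0.73, limma adjusted p = 0.0143). Tab2, which links Traf6 to the kinase Map3k7, had a difference of 0.70 (limma adjusted p = 0.00471). Ticam1, the adaptor of Tlr3 and Tlr4, did not pass, with means of 53.3 ± 12.6 in KO and 60.7 ± 16.6 in WT libraries (log2 difference -0.17, limma adjusted p = 0.740). The bridging adaptors Tirap and Ticam2 did not pass either, with log2 differences of -0.18 and -1.26 (limma adjusted p = 0.857 and 0.319).

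Of the 11 transcription factors, 2 were higher and 1 was lower. Irf8, a factor of the microglial lineage, had a log2 difference of 0.56 (limma adjusted p = 0.00488). Irf5, which Myd88 activates, had one of 0.52 (limma adjusted p = 0.0193). Nfkb2, a precursor of NF-kappa-B, fell by 2.62 with limma (adjusted p = 0.0465), with low means of 3.56 ± 7.12 in KO and 15.2 ± 12.9 in WT libraries, and did not pass with edgeR (adjusted p = 0.399).

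Of the 16 inhibitors, 1 was higher and 2 were lower. Il10ra, the receptor of the anti-inflammatory cytokine Il10, averaged 548 ± 124 in KO and 237 ± 33.6 in WT libraries (log2 difference 1.19, limma adjusted p = 2.51e-04). Nfkbiz, a nuclear regulator of NF-kappa-B, fell by 0.54 (limma adjusted p = 0.0315; edgeR adjusted p = 0.0690). Irak3, which blocks Irak signalling, fell by 2.92 with limma (adjusted p = 0.0129) at means of 3.99 ± 7.98 in KO and 14.6 ± 2.96 in WT libraries, and did not pass with edgeR (adjusted p = 0.425).

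Of the 17 genes that respond to these receptors, 2 were higher and 3 were lower. Icam1, an adhesion molecule, and Cd86, a costimulatory molecule, had log2 differences of 1.06 and 0.77 (limma adjusted p = 0.00870 and 0.0144). Saa3, an acute-phase protein, fell by 8.19, and the chemokines Ccl5 and Ccl4 fell by 3.38 and 1.37 (limma adjusted p = 0.00228, 0.0184 and 0.0208). Ccl5 did not pass with edgeR (adjusted p = 0.340). Tnf, a cytokine, did not pass, with means of 81.1 ± 22.4 in KO and 77.7 ± 33.8 in WT libraries (log2 difference 0.32, limma adjusted p = 0.723). Without WT library 8, 11 pathway genes were higher and 14 lower, against 7.6% and 22.6% of all genes. Rescaled to microglia markers, 1 pathway gene was higher and 25 were lower, against 1.13% and 34.7% of all genes. The gene that was higher was Il10ra, with a rescaled difference of 0.74 (limma adjusted p = 0.00990). The calls of Unc93b1, Myd88, Tab2, Irf8, Irf5, Icam1 and Cd86 as higher were lost, with limma adjusted p-values from 0.0630 (Unc93b1) to 0.787 (Irf5).

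After rAPOE injection, Tlr2 was the only member of the 9 tested that passed; it was higher, and none was lower. Of the 7066 genes tested in this table, 0.368% were higher and 0.113% lower (0.481% either way). The median log2 difference of the 9 members was -0.03, against -0.01 over all genes. The question is what the protein does when it is added to a brain that lacks it.

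**Figure D3:**
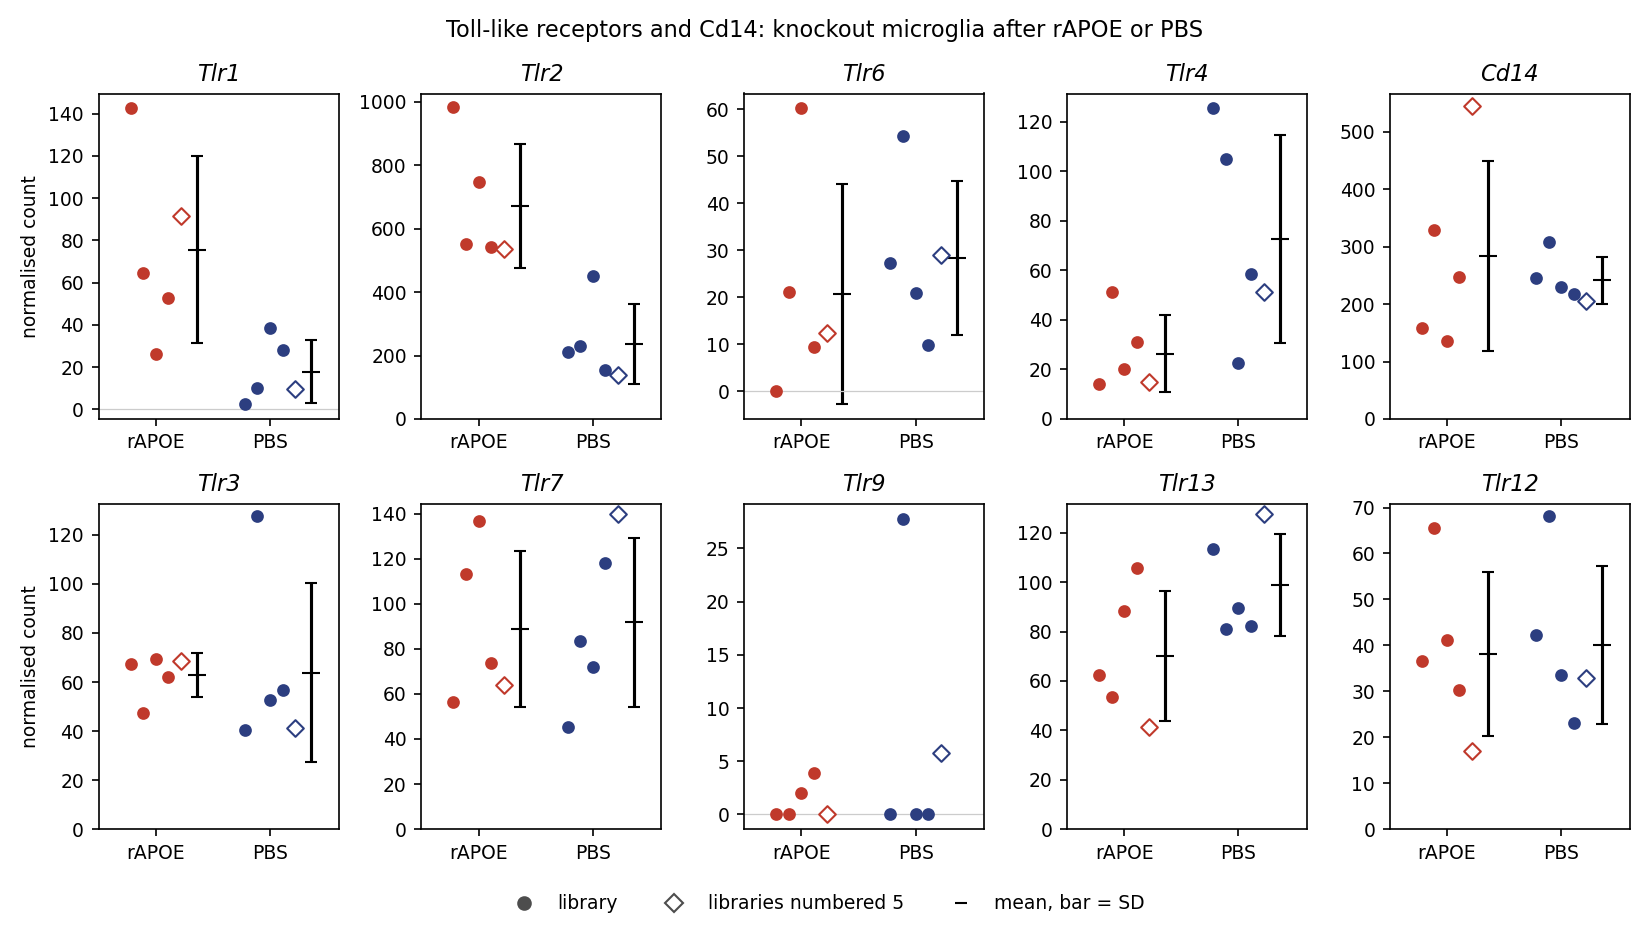
Normalised counts of the 10 members in each library of the injection table, rAPOE left (5 red points) and PBS right (5 blue points), with the libraries numbered 5 as open diamonds; black marks give the mean and SD, left out for Tlr9. For Tlr2 all rAPOE values (537 to 983) lie above all PBS values (138 to 449.6), while for the other members the groups overlap.

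Tlr2 had normalised counts of 983, 552, 748, 542 and 537 in rAPOE libraries 1 to 5, against 212, 230.1, 449.6, 153 and 138 in PBS libraries 1 to 5. The groups did not overlap, and the nearest pair was rAPOE library 5 and PBS library 3. The log2 difference was 1.59 (SE 0.30, limma adjusted p = 0.0102; edgeR adjusted p = 0.0359), with a 95% interval of 0.97 to 2.21. The means were 672 ± 195 after rAPOE and 237 ± 125 after PBS (SD, n = 5 each), a 2.84-fold higher level. Tlr2 was the only tested member whose groups did not overlap, against 1.59% of all genes higher and 1.54% lower in this way. With edgeR, 0.326% of genes were higher and 0.0142% lower. Tlr2 lies on the minus strand of chromosome 3 (83836272 to 83841767), with the sequence that holds the kappa-B matches just before it.

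The Tlr2 call held in each of the 10 fits that left out 1 library, with adjusted p-values of at most 0.0469 (without rAPOE library 1). Without both libraries numbered 5 the difference was 1.505 and no longer passed (limma adjusted p = 0.0601), and then 0 members were called, against 0.142% of genes higher and 0.0142% lower. Rescaled to microglia markers, which summed lower after rAPOE than after PBS, the Tlr2 difference was 2.21 (limma adjusted p = 4.96e-04), where 2.04% of genes were higher and the median of all genes was 0.56. The markers did not move alike here either. The median of P2ry12 was 319 after rAPOE and 1450 after PBS, and that of Cx3cr1 was 4190 and 5483. The part of single markers in the rescaled difference was not tested. Neutrophil markers, of which 6 of 10 had a value in this table, summed to 6.02 to 97.9 after rAPOE and 35.6 to 166 after PBS. Monocyte markers summed to 18.9 to 89.4 after rAPOE and 13.9 to 72.7 after PBS.

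The partners of Tlr2 did not pass. Tlr1 had 143, 64.6, 26.1, 52.8 and 91.7 after rAPOE, against 2.48, 10.1, 38.4, 28.3 and 9.65 after PBS. Only rAPOE library 3 lay within the PBS range, and PBS library 1 rested on 3 reads. The log2 difference was 2.28 (SE 0.71, limma adjusted p = 0.201), with a 95% interval of 0.81 to 3.74, and DESeq2 gave an adjusted p of 0.0588. Tlr6 had 0, 21.2, 60.2, 9.31 and 12.4 after rAPOE and 27.3, 54.4, 20.8, 9.88 and 29.0 after PBS. Its groups overlapped over most of their range, with a log2 difference of -1.18 (SE 0.97, limma adjusted p = 0.694).

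Tlr4 had 14.1, 51.5, 20.1, 31.0 and 14.8 after rAPOE, against 126, 105, 22.4, 58.6 and 51.5 after PBS. PBS libraries 1 and 2 were the highest, PBS library 3 lay within the rAPOE range, and the groups overlapped. The log2 difference of -1.37 (SE 0.58) did not pass (limma adjusted p = 0.376), with a 95% interval of -2.57 to -0.17. Cd14 had 159, 329.9, 137, 247 and 546 after rAPOE and 246, 308, 230.4, 218 and 205 after PBS. The rAPOE values spread below and above those after PBS, and the difference was 0.06 (SE 0.33, limma adjusted p = 0.972). The highest Cd14 value came from rAPOE library 5, and without both libraries numbered 5 the difference was -0.28 (limma adjusted p = 0.848).

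The nucleic acid receptors overlapped between the injected groups. Tlr3 had 67.2, 47.4, 69.3, 62.1 and 68.4 after rAPOE and 40.5, 128, 52.8, 56.6 and 41.2 after PBS. Apart from PBS library 2, rAPOE libraries other than 2 lay above PBS libraries, and the log2 difference was 0.11 (SE 0.42, limma adjusted p = 0.956). Tlr7 had 56.6, 113, 137, 73.7 and 63.7 after rAPOE and 45.5, 83.4, 72.0, 118 and 139.6 after PBS, with a difference of -0.03 (SE 0.40, limma adjusted p = 0.990). Both the lowest and the highest Tlr7 value came from PBS libraries. Tlr13 had 62.5, 53.5, 88.3, 106 and 41.2 after rAPOE and 113, 80.9, 89.6, 82.3 and 127 after PBS, with a difference of -0.54 (SE 0.37, limma adjusted p = 0.617). For Tlr13, rAPOE libraries 1, 2 and 5 lay below every PBS library, and rAPOE libraries 3 and 4 within the PBS range. The 95% intervals ran from -0.77 to 0.99 for Tlr3, -0.85 to 0.80 for Tlr7 and -1.32 to 0.23 for Tlr13. Tlr9 had 0, 0, 2.01, 3.88 and 0 after rAPOE and 0, 27.8, 0, 0 and 5.79 after PBS, where 22 reads in PBS library 2 made up most of its 31 reads after PBS, and it was not tested.

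Tlr12 had 36.5, 65.6, 41.2, 30.3 and 17.1 after rAPOE and 42.2, 68.3, 33.6, 23.0 and 32.8 after PBS. The groups overlapped nearly throughout, with a difference of -0.10 (SE 0.54, limma adjusted p = 0.972). Tlr4 rested on 12 to 51 reads per rAPOE library and 14 to 152 per PBS library, where its difference had an SE of 0.58, and on 376 to 530 reads per KO female library and 46 to 104 per WT library, where the SE was 0.29.

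After rAPOE, the pathway genes that passed with limma were all response genes. Of 65 pathway genes tested, 6 were higher and 0 lower, against 0.368% and 0.113% of all genes, and all 6 were among the 17 response genes, whose median log2 difference was 2.10. Saa3 averaged 202 ± 117 after rAPOE and 0.418 ± 0.593 after PBS, a log2 difference of 7.05 (limma adjusted p = 7.68e-05). The chemokine Ccl5 averaged 356 ± 169.5 after rAPOE and 8.53 ± 10.3 after PBS, a difference of 5.82 (limma adjusted p = 1.18e-04). Of the chemokines Cxcl16 and Cxcl10, the differences were 2.12 and 2.91 (limma adjusted p = 1.13e-04 and 4.28e-04). Sod2, an antioxidant enzyme of mitochondria that NF-kappa-B induces, had a difference of 2.37 (limma adjusted p = 0.00218). Isg15, an interferon-induced protein, had one of 4.51 (limma adjusted p = 0.0121), which did not pass without both libraries numbered 5 (limma adjusted p = 0.119). The other 5 passed without them too. With DESeq2, 9 pathway genes were higher and 2 lower. Those higher included the response genes Tnf, Il1b and Ifit3, which did not pass with limma. Their limma log2 differences were 1.61, 1.76 and 2.27 (limma adjusted p = 0.0998, 0.155 and 0.178). DESeq2 gave adjusted p-values of 0.0101, 0.00363 and 0.0200.

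**Figure D4:**
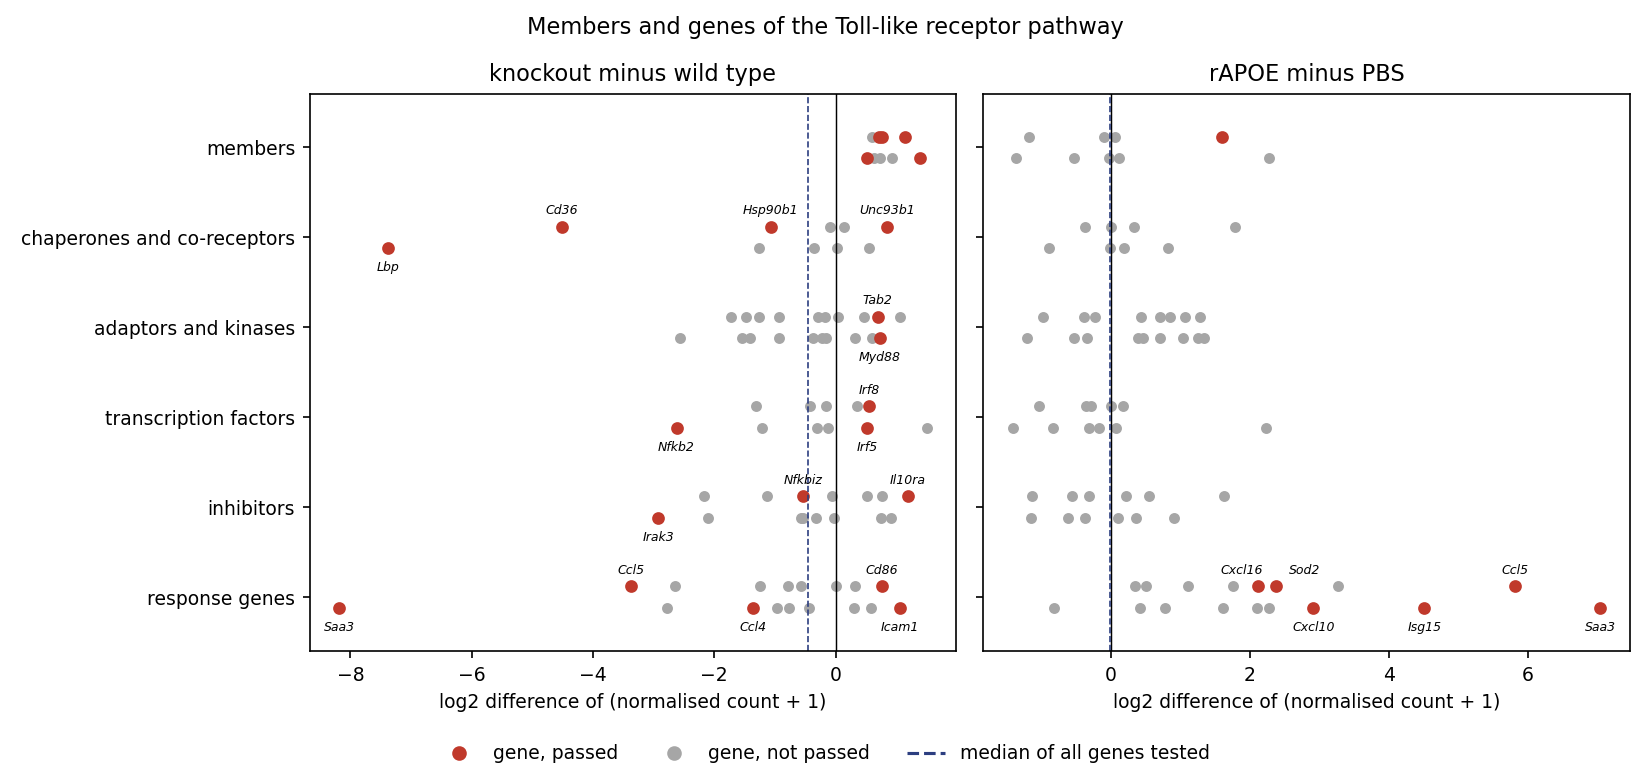
Log2 differences of the members and of the 5 pathway lists, KO minus WT (left) and rAPOE minus PBS (right); each point is a gene, red where it passed, pathway genes that passed are named, and the dashed line is the median of all genes tested. For KO minus WT, genes that passed lie on both sides of 0 in 4 of the 5 lists, and for rAPOE minus PBS the 6 pathway genes that passed are all response genes, from 2.12 (Cxcl16) to 7.05 (Saa3).

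None of the 8 chaperones and co-receptors, 17 adaptors and kinases, 11 transcription factors and 12 inhibitors tested passed with limma after rAPOE, and whether the lists differ from each other was not tested. Unc93b1 averaged 646 ± 141 after rAPOE and 642 ± 109 after PBS. Myd88 averaged 68.8 ± 26.2 after rAPOE and 99.5 ± 34.8 after PBS (log2 difference -0.53, limma adjusted p = 0.661). Tirap, Ticam2, Cd180, Ly86 and Cd36 had log2 differences of 0.43, -0.39, -0.01, -0.38 and 1.79, with limma adjusted p-values of 0.675 to 0.994. Ticam1 and Ly96 were below the mean of 10 and were not tested. Fos, a subunit of the factor AP-1, averaged 241 ± 124 after rAPOE and 587 ± 177 after PBS and did not pass (log2 difference -1.42, limma adjusted p = 0.0736), but it passed without both libraries numbered 5 (log2 difference -1.80, limma adjusted p = 0.0236) and with DESeq2 (adjusted p = 0.0187). Jun, its partner in AP-1, averaged 645 ± 257 after rAPOE and 1293 ± 394 after PBS, a log2 difference of -1.04 that did not pass with limma (adjusted p = 0.113) and passed with DESeq2 (adjusted p = 0.0294). Fos and Jun are named here after their values were seen.

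Genes with the profile most like that of a member were found by the root mean square (RMS) difference of log2 values centred over the libraries, for the 3 members with the highest mean in each table. Over the 10 injection libraries, Tlr2 lay closest to Clec7a, a receptor of fungal glucans (RMS difference 0.36, against an RMS of 0.93 of Tlr2 itself), then to Sra1 and Tpm4 (0.38 and 0.43). Cd14 lay closest to Hnrnpa3 (0.27) and Tlr7 to Reep3 (0.31) in these libraries. Over the 11 genotype libraries, Tlr12 lay closest to Sf1 (0.15), Tlr13 to Lpcat1 (0.16) and Cd14 to Arpc3 (0.15).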

How the data were processed

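Per the labels' protocols, RNA of isolated microglia was made into QuantSeq 3′ FWD libraries and sequenced (Illumina MiniSeq). The submitters' processing notes name the genome build GRCm38.p3, Picard 1.8.4, HTSeq, R 3.2.3 and DESeq2. The aligner and annotation, and whether counting used strand, were not given in the sources used here. What the authors deposited is a signal per gene, normalised by a library-wide factor, separately in each table, so levels are not compared between tables. In every library 100% of values were within 0.01 of a whole multiple of 1 step, which gave the reads. Reads carry no molecular identifiers, so depth limits cover counting error only.

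Of 18221 entries of the genotype table, 22 with dates as names (0.0966% of the summed values) and 120 at 0 throughout were left out. Values were analysed as log2(normalised count + 1), which understates changes of low genes, with limma 3.58.1 (trend) in R 4.3.3, on genes whose mean was 10 or more, with KO and WT or rAPOE and PBS libraries in a fit of their own; all p-values are Benjamini-Hochberg adjusted over all genes tested, at 0.05. Fold changes are ratios of mean normalised counts. Intervals are at 95%. Alternatives were pseudocounts of 5 and 0.5, no filter, a mean of at least 50, TMM and quantile rescaling, edgeR 4.0.16 (quasi-likelihood) and DESeq2 1.42.0 on the recovered reads, a replicate block, leaving out libraries, and, added after the data were seen, rescaling to 10 microglia markers and a term for injection libraries 4 and 5. The fits were tested on simulated data.

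The members and the lists were chosen with earlier results of these data known. All members are named; of each pathway list, up to 4 genes that passed, by adjusted p, and Myd88, Ticam1, Ticam2, Tirap, Ly96, Lbp, Unc93b1, Cd180, Ly86 and Cd36. Tnf, Fos, Jun, Ccl4 (KO and WT), and Sod2, Isg15, Il1b and Ifit3 (rAPOE and PBS) fall outside this rule and were chosen after their values were seen. Positions are from GENCODE M21 (GRCm38), which holds 99.3% (genotype) and 99.9% (injection) of the symbols.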

Additional observations from a re-analysis of the deposited data

Results flagged for a closer look

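Of 40 groups of member values, 6 held a library whose gap to the nearest other library exceeded Dixon's limit, where chance gives about 1 in 20. In WT library 8, Tlr7 had a normalised count of 283 (next highest 161) and Cd14 of 116 (next lowest 205). In KO library 3, Tlr13 had 471 (next highest 333), and in KO library 2, Tlr9 had 17.4 while the other KO libraries had 0. In PBS library 2, Tlr3 had 128 (next highest 56.6) and Tlr9 had 27.8 (next highest 5.79). WT library 8 is also the WT library without Y-linked reads; its part in these values was not tested.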

How the results depend on the processing

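In the KO and WT comparison, the same 5 members were called by limma, edgeR and DESeq2. Of 188 alternative values of single members, 170 kept direction and side of the threshold, 6 (Tlr2, Tlr6 and Tlr7) gained and 12 (Tlr12, and under the microglia rescaling also Tlr13 and Cd14) lost the call. Called members were 2 and pathway genes 26 (17 as deposited) after rescaling to microglia markers, and genes called were 1289 (488 higher, 801 lower) at a mean of at least 50 and 1657 (498 higher, 1159 lower) by edgeR, against 2596. In the rAPOE and PBS comparison, genes called were 34, against 64 with pseudocount 5, 67 with quantile rescaling, 115 by DESeq2, 145 rescaled to microglia markers, 11 without both libraries numbered 5, and 16 to 74 when leaving out 1 library. Pathway genes called were 6, against 11 by DESeq2 (9 higher, 2 lower) and 10 rescaled to microglia markers; members called were 0 without both libraries numbered 5. Members that did not pass changed sign: Tlr3 to -0.012 by edgeR and -0.014 by DESeq2, to -0.017 and -0.012 when leaving out PBS libraries 1 or 5, and to -0.045 without both libraries numbered 5; without these, Tlr7 was 0.25, Tlr12 0.10 and Cd14 -0.28. Leaving out 1 library gave Tlr7 differences of -0.25 to 0.15, Tlr12 of -0.32 to 0.15, Cd14 of -0.22 to 0.28 and Tlr3 of -0.017 to 0.39. Rescaled to microglia markers, which moved the median of all genes to 0.56, Tlr7 was 0.58, Tlr12 0.50 and Tlr13 0.065. The causes were not tested. Same-numbered libraries deviated together little or not at all (correlations of at most 0.19, 2 of 5 over 0.1 after injection and 0 of 4 by genotype). Of them, 1 of 5 and 0 of 4 correlated best with their own number, so numbers were not taken as pairs. Injection libraries 4 and 5 of both groups detected 10025 to 11342 genes and libraries 1 to 3 detected 7601 to 8837, a difference whose origin was not tested. Libraries 4 and 5 after rAPOE also correlated with libraries 4 and 5 after PBS, at 0.097 to 0.19, whether or not the numbers matched. With a term for libraries 4 and 5, added after the data were seen, 73 genes, 11 pathway genes (9 higher, 2 lower) and 1 member passed, with Tlr2 higher by 1.59 (limma adjusted p = 0.00121). A replicate block called 52 genes and 11 pathway genes in the injection comparison, and in the KO and WT comparison gave adjusted p-values of 0.0443 for Tlr7 and 0.166 for Tlr12. Depth limits Tlr9, and Tlr1 and Tlr6 after injection, where libraries held as few as 0 to 3 reads.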
